A study of Mus musculus with 8 samples.

Results

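The mouse kidney was compared with lung, liver and small intestine in bulk RNA sequencing, to describe which functions were carried by the genes higher or lower in kidney beyond the markers of its own cell types. The kidney is represented by 2 of the 8 libraries, chosen by their sample labels, and each of the other tissues by 2 as well. Every library was made from polyadenylated RNA of 6- to 10-week-old males of the inbred strain C57BL/6J (C57BL/6 in the labels), and the labels name no treatment, transgene or deletion for any group. The study describes the 2 libraries of a tissue as biological replicates from different animals, with all 4 tissues excised from every mouse, but the labels do not tie a replicate number to a mouse across tissues. The p-values rest on 2 libraries per tissue. Excised tissue and not sorted cells was sequenced, so a gene that was lower in kidney may be less expressed per cell or expressed in fewer cells, and in bulk samples these cannot be told apart.

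The kidney filters the blood in the glomerulus and then recovers most of the filtrate along the tubule. The proximal tubule takes back sugars, amino acids, phosphate and proteins and secretes organic acids and bases, the loop of Henle and the distal tubule adjust salt, calcium and magnesium, and the collecting duct sets the final amount of water, potassium and acid. This work is paid for by the Na,K-ATPase and therefore by mitochondria, and the proximal tubule also makes glucose, activates vitamin D and breaks down hormones, amino acids and foreign compounds.

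Values are FPKM, the fragments counted on a gene relative to its length and to the size of the library, as deposited and then rescaled between libraries by the median of ratios. The kidney libraries held 21444675 and 17310074 reads on genes, against 9164187 to 12427339 in the other libraries, so that 3 reads on a gene with 1 kb of exons correspond to a deposited FPKM of 0.140 in the deepest library and of 0.327 in the shallowest, and lower values are not told from 0. Values printed below are rescaled, so this floor is to be divided by the factor of the library. The factor was 0.551 and 0.626 in liver, where the floor rises, and 1.81 and 1.89 in lung, where it falls. The labelled tissue held its defining transcripts. The filter on low values kept all 21 markers of 6 kidney cell types, and 19 were called higher, 17 of them in both kidney libraries above all 6 others. The exceptions were Trpm6, a magnesium channel of the distal convoluted tubule, which stood at 2.15 and 0.904 in kidney and 1.95 and 2.14 in lung, and Synpo, an actin-binding protein of podocytes, at 3.08 and 1.83 in kidney and 5.86 and 7.56 in small intestine. Synpo had a log2 difference of 0.02 that turned negative with other scalings, without kidney replicate 1 and without small intestine replicate 1. Genes that define cells of the other organs were mostly at small shares of the level in those organs: 5 genes of alveolar type 2 cells stood at a median of 0.0603% and 0.261% of their lung level in kidney replicates 1 and 2, and 6 hepatocyte genes at 0.0348% and 0.145% of their liver level. The 6 enterocyte genes stood at a median of 0.0384% and 0.150% of their small intestine level, with Vil1, the villin of brush borders, which was called higher in kidney against the mean of the others, highest at 7.67% and 8.38%. The small intestine libraries also held 8 genes of pancreatic acinar cells, at sums of 2542 and 1234, of which 7 were called lower in kidney and 1 higher. In kidney these 8 stood at a median of 0.0578% and 0.268% of their small intestine level, with the highest at 22.8% and 31.7%.

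Of the 15542 genes tested with limma on log2(rescaled FPKM + 1), kidney against the mean of the other 3 tissues, 1910 (12.3%) were called higher and 1974 (12.7%) lower, where a call needs an adjusted p (Benjamini-Hochberg) under 0.05 and a log2 difference over 1 in size. On this scale the differences of weakly expressed genes are understated. In 1335 genes (8.59%) the called difference put both kidney libraries above all 6 others, and in 781 (5.03%) below all of them. The genes that set kidney apart from each tissue alone were mostly higher: 794 (5.11%) passed upward against every other tissue separately and 195 (1.25%) downward. A gene can pass upward with values near 0 elsewhere, but downward only if it is expressed in all 3 others. The same count was not made for another tissue, so the balance is not known to be particular to kidney. A difference from the mean of the others often left out liver. Of the genes called higher, 463 failed against liver alone, 202 against lung alone and 221 against small intestine alone, and liver was the tissue with the highest level outside kidney for 863 of the 1910. Of the genes called lower, 542 failed against liver alone. However, 849 of the 1974 called lower passed against only 1 of the 3 tissues, beside 229 of the 1910 called higher. Among the genes called higher, 98 were called lower against another tissue, and 67 of those called lower were called higher against another. Against lung alone 17.9% of all genes tested were called higher and 17.8% lower, against liver 12.1% and 11.6%, and against small intestine 14.5% and 15.7%, and the counts of list members against a single tissue are to be read beside these shares. The balance of higher and lower calls moved with the scaling between libraries. Over all genes tested the median difference was -0.10, and 49.2% of calls were higher. With the values as deposited the median was -0.33 and 35.3% of calls were higher, with every library set to the same sum -0.48 and 26.3%, and with the same sum after leaving out the genes of the mitochondrial genome and 7 of their pseudogenes on chromosome 1, a setting chosen after seeing the data, 0.10 and 58.1%. The differences below are to be read against the median of -0.10.

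The 12 genes with the largest positive differences outside the marker lists were mostly genes known from the proximal tubule. Kap (chr6:133849851-133853762, GRCm38), the kidney androgen-regulated protein, stood at 14758 and 44181 in kidney, against 18.3 and 13.3 in small intestine, 45.3 and 9.26 in lung and 60.5 and 80.1 in liver. Its log2 difference was 9.76 (SE 0.60, limma adjusted p = 1.19e-05), and replicate 1 minus replicate 2 was -1.58 in kidney. Miox (chr15:89334398-89337015), which opens the ring of myo-inositol, stood at 956 and 1639 in kidney and at 0.438 to 3.96 elsewhere, and Akr1c21 (chr13:4574075-4586541), a steroid-reducing aldo-keto reductase, at 740.4 and 1215 against 0.255 to 2.68. Gpx3 (chr11:54902453-54910377), the glutathione peroxidase that the kidney secretes into plasma, reached 12414 and 15546 in kidney, but lung also held 244 and 322, above 32.4 and 26.8 in small intestine and 30.8 and 35.6 in liver. Its difference was 7.71 (SE 0.21, limma adjusted p = 4.51e-07).

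Of these 12 genes 3 encode carriers. Slc22a12 (chr19:6535845-6543032), the urate exchanger, stood at 504 and 550.5 in kidney and 0.225 to 1.86 in the other libraries, and Slc22a6 (chr19:8618039-8628299), which takes up organic anions from blood, at 176 and 232 against 0.0528 to 0.654. Slc7a13 (chr4:19818725-19842218), a carrier of acidic amino acids, stood at 567 and 930.3 against 0.218 to 2.46. That the groups do not overlap follows from the rule that chose these genes. Acsm2 (chr7:119554340-119600690), a medium-chain acyl-CoA synthetase, stood at 615 and 663 against 0.205 to 2.71, Fxyd2 (chr9:45399669-45410278), a regulatory subunit of the Na,K-ATPase, at 252 and 405 against 0.38 to 1.24, and Tmem174 (chr13:98634978-98637410) at 158 and 223 against 0.0377 to 0.792. The remaining pair was Tmem27, a partner of amino acid carriers, at 712 and 1224 against 0.248 to 2.91, and Hsd3b4 (chr3:98499071-98510514), a steroid reductase with near copies in the mouse genome, so that its share of the reads is uncertain, at 292 and 497 against 0.119 to 3.5. In the other tissues the 12 genes stood at a median of 0.0318% to 0.310% of their kidney mean, by library, and whether this is expression there was not tested.

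**Figure D1:**
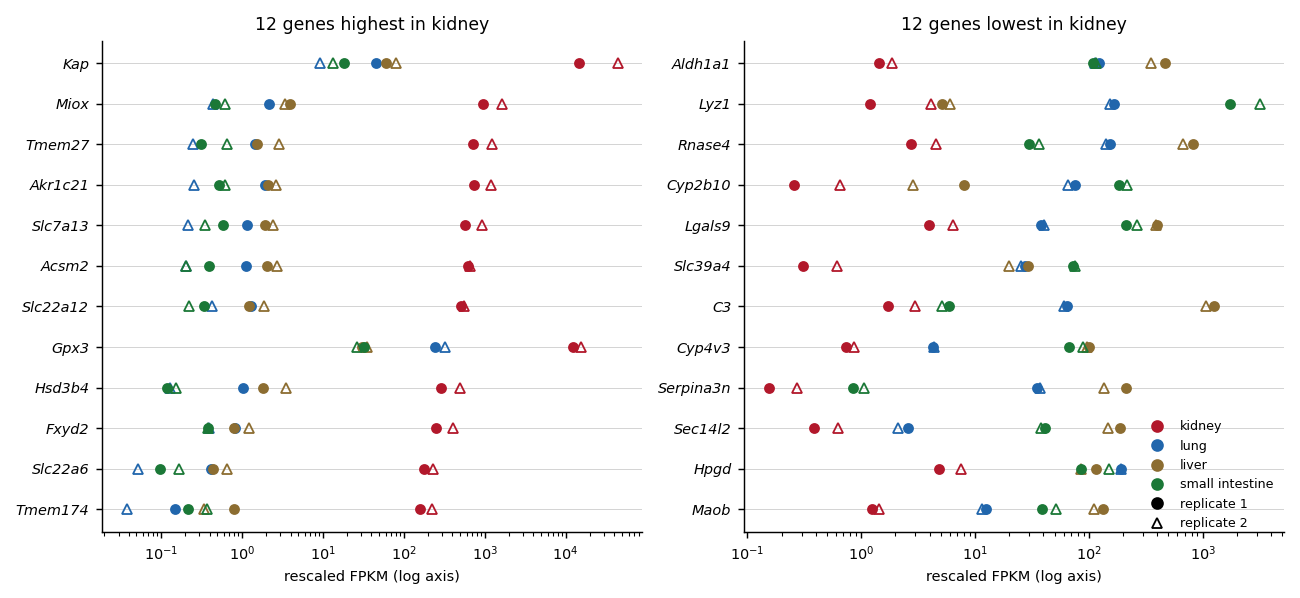
Rescaled FPKM on a log axis for the 12 genes with the largest positive (left) and the 12 with the largest negative (right) log2 difference, 1 point per library, filled circles replicate 1 and open triangles replicate 2. On the left both kidney libraries lie to the right of all 6 others in every row, and on the right both lie to the left of all 6 others.

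Carriers for the recovery of filtered solutes were higher in most of their genes. Of 20 genes for the recovery of sugar, phosphate, sulfate and organic acids, 15 were called higher and none lower, with a median difference of 2.93, and 11 stood above all other libraries. Slc13a3, which carries dicarboxylates, stood at 99.6 and 110.4 in kidney, against 0.0744 and 0.0811 in small intestine, 0.651 and 0.155 in lung and 3.88 and 1.78 in liver. Slc5a10, a carrier of mannose and fructose, stood at 28.8 and 35.8 in kidney and at no more than 0.179 elsewhere. Slc5a8, which takes up lactate and nicotinate, stood at 49.5 and 44.5 in kidney and at 0.437 and 7.68 in the small intestine libraries, which differed from each other. Of the 23 genes for amino acid and peptide recovery, 15 were called higher and 1 lower (median 2.32). Against small intestine, which also absorbs amino acids, members went both ways, with 11 higher, 5 lower and a median of -0.14, beside medians of 2.92 against lung and 3.21 against liver. Slc6a18, a glycine carrier, stood apart from small intestine too, at 123 and 89.6 against 0.0385 to 0.417 elsewhere. Slc36a2, a proton-coupled carrier of glycine and proline, was the member called lower, at 0.0139 and 0 in kidney and 7.28 and 6.78 in lung.

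The uptake of filtered proteins and the peptidases of the brush border were less uniform. Of 24 genes, 11 were called higher and 2 lower, with a median of 0.72. The median fell to 0.43 with the values as deposited and to 0.20 with equal sums, where 10 were higher and 3 lower. Folr1, which binds filtered folate, stood at 106 and 152 in kidney and 0.11 to 0.369 elsewhere. Mep1a, a subunit of the brush border protease meprin, stood at 367 and 454 in kidney and 15.5 and 32.4 in small intestine, and Ggt1, which cleaves glutathione outside the cell, at 209 and 278 and 122 and 119. Both intestinal levels were far above those of lung and liver, which did not exceed 1.27. The peptidases of the brush border of the gut ran the other way: Anpep stood at 22.7 and 23.9 in kidney and 768 and 1080.2 in small intestine, and Dpp4 at 8.45 and 7.1 and 43.8 and 76.4. Both were called lower against the mean of the others.

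For the secretion and uptake of organic ions, 30 of the 32 listed genes passed the filter, 25 were called higher and 3 lower, with a median of 3.33. In 21 of them both kidney libraries lay above all others. Slc22a2, the cation carrier OCT2, stood at 144 and 235 in kidney, and no other library exceeded 1.41. The members called lower were Slco2a1, a prostaglandin carrier, at 1.36 and 1.22 against 3.86 to 16.7, the drug efflux pump Abcb1a at 0.704 and 0.50 against 0.452 to 31.4, and Slco2b1, at 2.14 and 1.88 against 2.2 to 20.7. Over the solute carrier symbols as a whole, 294 of 370 genes passed the filter, 110 were called higher and 41 lower (62 lower with equal sums), and 143 were not called. The median was 0.43, which turned to -0.05 with equal sums.

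Transport in the distal nephron was higher in most of its genes. Of 36 genes tested out of 37 for distal salt, potassium, magnesium and calcium transport, 30 were called higher and none lower (median 2.69), 27 lay above all other libraries and 24 passed against each tissue. Kcnj16, a potassium channel of the basolateral membrane, stood at 119.9 and 87.9 in kidney against 0.0648 to 0.705. Kcnj1, the potassium channel ROMK of the apical membrane, stood at 51.9 and 44.5 against 0.0127 to 0.372, and Kcnj15 at 141 and 83.9 in kidney and 8.37 and 6.1 in lung. Among 25 potassium channel symbols tested, 7 were called higher and 3 lower (6 lower with the values as deposited), and the share lower was near that of all genes. Claudins, which set the permeability of tight junctions, were called in both directions, with 6 higher and 5 lower of 15 (3 lower without kidney replicate 1). Cldn10 stood at 59.7 and 108 in kidney and 0.131 to 4.65 elsewhere, Cldn8 at 28.5 and 23.6 against 0.0841 to 0.577, and Cldn3 at 4.11 and 5.57 against 37.8 to 186. Of 11 subunits of the Na,K-ATPase, 4 were called higher and 2 lower (4 lower with equal sums or the values as deposited). Atp1b1 stood at 498 and 527 in kidney and 187 and 293 in small intestine, and Fxyd4, a subunit of the collecting duct, at 13.2 and 16.1 against 0 to 0.376. Fxyd1 stood at 0.644 and 0.701 in kidney and 73 and 66.3 in liver.

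The genes of acid secretion and ammonia handling were higher in most cases. Of 25 listed, 19 passed the filter, 14 were called higher and 1 lower (median 2.47), or 13 higher and 2 lower with the values as deposited or with equal sums. Rhcg, an ammonia channel, stood at 37.4 and 36.4 in kidney and at no more than 0.178 elsewhere, and Car12, a membrane carbonic anhydrase, at 24.2 and 20.7 against 0.0261 to 0.701. The proton pump of the vacuolar type was higher beyond its renal subunits. Of 21 subunits tested, 14 were called higher and none lower, 12 lay above all other libraries and 11 passed against each of the 3 tissues, with a median of 1.46. Atp6v0a4 stood at 33.1 and 19 in kidney against 0.0311 to 0.25, and Atp6v1b1 at 16.6 and 9.62 against 0 to 0.452. The exchanger Slc26a6 was the member called lower, at 1.03 and 1.12 in kidney, 65 and 55.4 in small intestine and 0.952 and 0.715 in liver.

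Water channels, urea carriers and organic osmolytes had no common direction. Of 16 genes tested out of 18, 6 were called higher and 5 lower, and with equal sums 2 were higher and the median of 0.39 turned to -0.08. Aqp1, the water channel of the proximal tubule, stood at 342 and 376 in kidney and 157 and 176 in lung. Slc5a3, which imports myo-inositol in the hypertonic medulla, stood at 11.2 and 3.55 in kidney, where the libraries were apart, and 0.418 to 0.763 elsewhere. Akr1b3, the aldose reductase that makes sorbitol, stood at 6.76 and 16.8 in kidney and 6.58 and 6.97 in lung, so that kidney replicate 1 lay within the range of lung. Aqp6, of intercalated cells, stood at 14.1 and 10.8 against 0 to 0.0962. Aqp8 and Aqp9 were highest in liver, at 83.3 and 72.4 and at 76.7 and 80.3, and stood at 0.488 and 0.765 and at 0 and 0.136 in kidney.

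**Figure D2:**
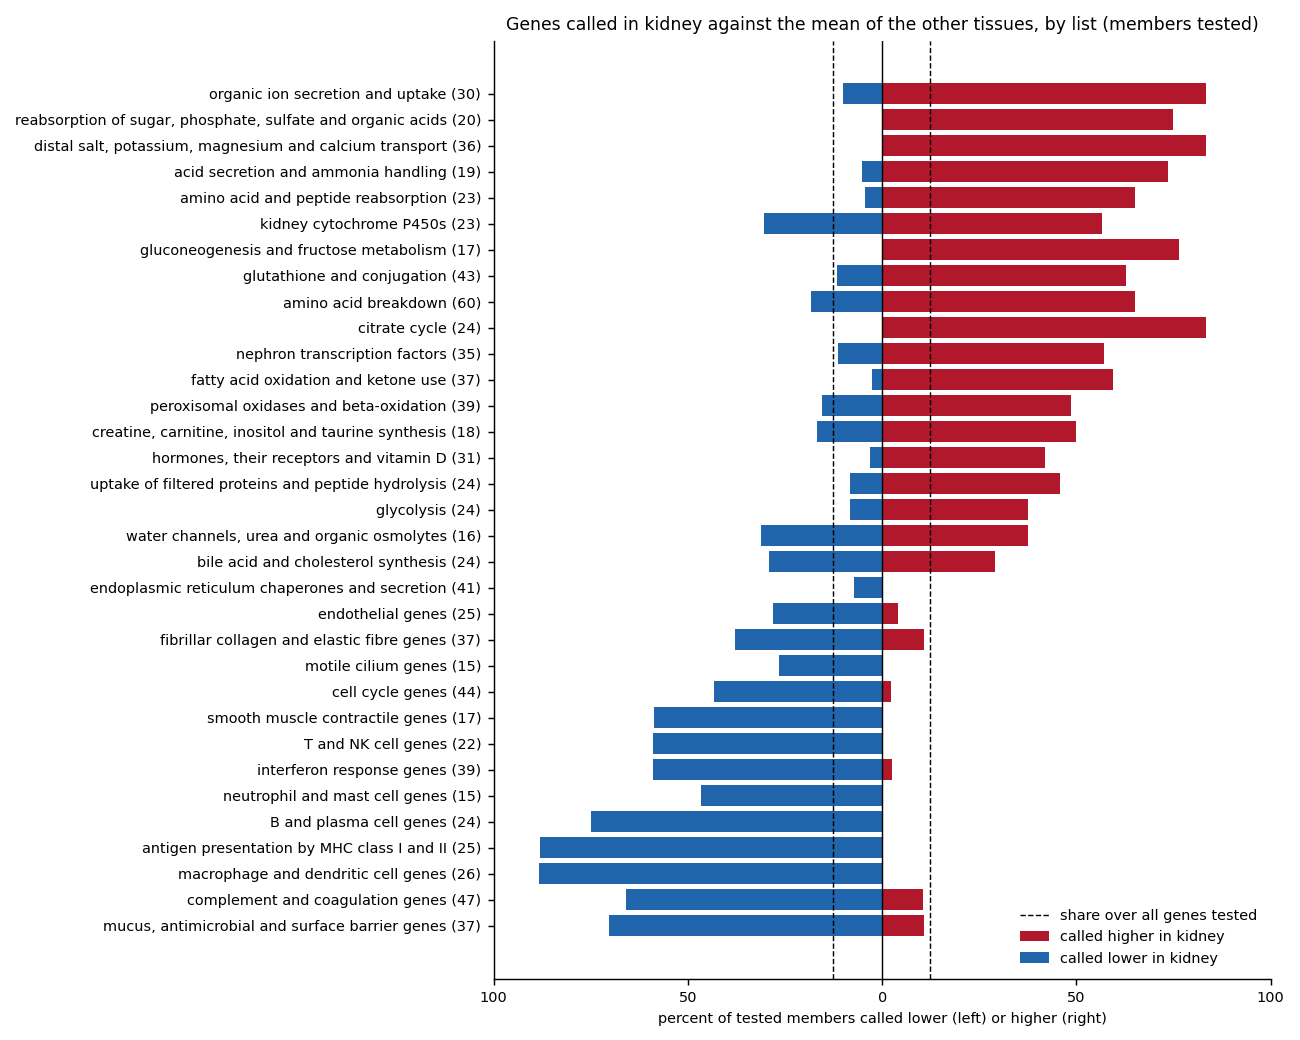
Percent of the tested members of each list called higher (right) or lower (left) in kidney against the mean of the other 3 tissues, with the number tested in parentheses, ordered by median log2 difference. Dashed lines mark the share over all genes tested, 12.3% higher and 12.7% lower, and 5 transport lists lie at the top while immune, complement and barrier lists lie at the bottom.

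Hormone production and reception were partly higher. Of 39 listed genes 31 passed the filter, 13 were called higher and 1 lower, or 3 lower with the values as deposited (median 0.74). Pth1r, the receptor of parathyroid hormone, stood at 157 and 236 in kidney and 0.549 to 5.49 elsewhere. Kl, the co-receptor of the phosphate-lowering hormone FGF23, stood at 45.3 and 31.1 in kidney and at no more than 0.149 elsewhere. The receptor of prolactin, Prlr, was called lower, at 0.917 and 0.42 in kidney, 4.76 and 7.47 in small intestine and 9.8 and 7.77 in liver.

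Transcription factors known from the nephron were higher in 20 of 35 tested and lower in 4 (2 with equal sums without mitochondrial genome genes and pseudogenes), with a median of 1.33, and 13 lay above all other libraries. Emx1 stood at 10.1 and 16.6 in kidney and at no more than 0.0777 elsewhere. Tfcp2l1, a factor of the collecting duct and distal tubule, stood at 19.1 and 7.43 against 0.328 to 2.79. The members called lower included Nr1i2, the pregnane X receptor, at 1.81 and 1.58 in kidney and 37.8 and 23.9 in liver, and Foxp4 at 1.95 and 1.93 against 3.83 to 6.34.

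Hox genes keep a record of position along the body axis. Of 39 symbols 20 passed the filter, 11 were called higher and none lower, and each of the 11 lay above all other libraries and passed against each of the 3 tissues. A member at 0 outside kidney could pass the filter through the kidney libraries alone. Hoxd8 stood at 22.2 and 24.4 in kidney and at no more than 0.283 elsewhere, Hoxb7 at 11.3 and 14.1 against 0 to 0.605, and Hoxd9 at 9.88 and 10.6 against 0 to 0.185. The differences of these 3 genes were 4.40, 3.38 and 3.35 (SE 0.11, 0.12 and 0.10). The others were Hoxa7, Hoxa9, Hoxb6, Hoxb9, Hoxc6, Hoxc9, Hoxc10 and Hoxd10. Members that passed the filter but were not called, such as Hoxa5 and Hoxa10, were present in lung or liver as well. Of the 20, 5 were over 1 log2 unit higher in kidney replicate 2 than in replicate 1, namely Hoxa5, Hoxa10, Hoxb8, Hoxc4 and Hoxc8, none of which was called. Hoxa5 stood at 4.45 and 82.8 in the kidney libraries and 111 and 145 in liver, and Hoxa10 at 7.93 and 30.3 in kidney and 30.9 and 33 in liver. The use of strand in counting is not given in the sources used here, and reads of a Hox gene and of an antisense transcript over it cannot be told apart without it.

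**Figure D3:**
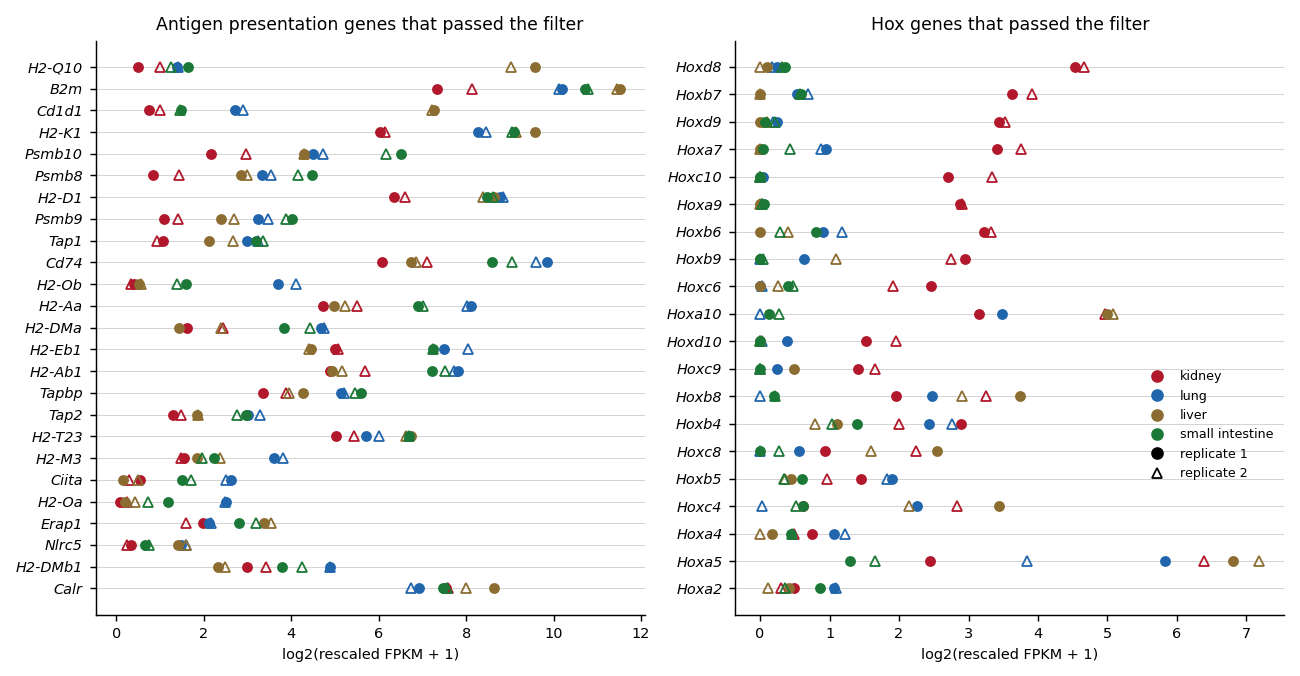
Antigen presentation genes (left) and Hox genes (right) that passed the filter, as log2(rescaled FPKM + 1), 1 point per library, filled circles replicate 1 and open triangles replicate 2. For most antigen presentation genes the kidney points are the lowest or near the lowest, and in the upper rows of the Hox panel the kidney points stand alone while the other tissues lie near 0.

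Promoters of genes that were higher or lower together were searched for the letters CAAAGTCCA, a site of hepatocyte nuclear factor 4. RefSeq windows (GRCm38.p6) from 250 bases before to 50 bases after the start held these letters on either strand in 1 of the 284 genes with a window (0.352%) among those at least 4-fold above every other library, in 4 of 127 (3.15%) among those at least 4-fold below, and in 76 of 10493 (0.724%) among all genes tested. Over all genes called higher it was 16 of 1336 (1.2%), and over all called lower 25 of 1292 (1.93%). The letters TCAAGGTCA, for the estrogen-related receptors, were in none of the 284, 1 of the 127 (0.787%) and 37 of all (0.353%). The motifs were searched separately, and matches may overlap. These shares are descriptions, and their differences were not tested. The holder among the higher genes was Smcp, a protein of sperm mitochondria, at 2.14 and 4.77 in kidney and 0 to 0.319 elsewhere, and the holders among the lower genes were Gimd1, Csrp3 and the near copies Pilra and Pilrb1. Gimd1 stood at 0 and 0 in kidney and 58.3 and 93.6 in small intestine. Windows of the gene that was higher and of the lower gene with the largest difference are printed 5′ to 3′ on the strand of the gene, with the match in capitals, for Smcp (chr3:92589024-92589323, minus strand) and Gimd1 (chr3:132629596-132629895, plus strand).
Smcp: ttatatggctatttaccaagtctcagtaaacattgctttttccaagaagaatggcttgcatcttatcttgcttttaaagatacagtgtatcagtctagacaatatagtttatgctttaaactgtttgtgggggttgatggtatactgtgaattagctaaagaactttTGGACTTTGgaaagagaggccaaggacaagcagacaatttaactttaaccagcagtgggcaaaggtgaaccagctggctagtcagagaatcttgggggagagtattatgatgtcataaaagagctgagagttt
Gimd1: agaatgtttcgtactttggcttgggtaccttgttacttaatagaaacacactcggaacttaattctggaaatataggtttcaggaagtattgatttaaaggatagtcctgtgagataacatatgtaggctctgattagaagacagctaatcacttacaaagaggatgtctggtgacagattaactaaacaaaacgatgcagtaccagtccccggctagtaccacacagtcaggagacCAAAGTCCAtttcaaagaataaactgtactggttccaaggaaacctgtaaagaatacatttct
In Smcp the match lies on the strand opposite to the gene, and in Gimd1 on the same strand.

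Genes of glucose synthesis were higher against the mean of the other tissues and divided against liver. Of 17 genes of gluconeogenesis and fructose use, 13 were called higher against the mean and none lower (median 2.03), but 1, the glycerol kinase Gk, lay above all other libraries. Against lung 16 were called higher, with a median of 4.04, and against liver 4 higher and 2 lower, with a median of -0.15. Fbp1, a rate-limiting step of glucose synthesis, stood at 534 and 704 in kidney, against 27.8 and 20.8 in small intestine, 1.69 and 0.799 in lung and 760.4 and 666 in liver. G6pc, which releases glucose, stood at 247 and 276 in kidney and 304 and 459 in liver. Kidney and liver overlapped for Fbp1, and liver was the higher for G6pc.

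Glycolysis genes were called in both directions. Ldhb, the lactate dehydrogenase subunit of oxidative tissues, stood at 673 and 872 in kidney, against 5.56 and 5.01 in small intestine, 49.5 and 51.3 in lung and 3.66 and 4.04 in liver, with a difference of 6.05 (SE 0.15, limma adjusted p = 4.07e-07). Ldhd, which oxidises D-lactate, stood at 155 and 218 in kidney and 57.1 and 49.1 in liver. Hk1 stood at 8.3 and 6.48 against 0.472 to 3.7. The monocarboxylate carrier Slc16a3, which exports lactate, was called lower, at 0.145 and 0.167 in kidney, 4.71 and 4.07 in small intestine and 0.0745 and 0.0873 in liver. Of 24 glycolysis genes in all, 9 were called higher and 2 lower, and with equal sums 4 and 5. Against liver 5 were higher and 4 lower (median 0.35).

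Genes of the citrate cycle and of oxidative phosphorylation were higher to an extent that depended on the scaling, the library and the tissue compared. Of 24 genes of the citrate cycle, 20 were called higher and none lower (median 1.39), 13 lay above all other libraries, and 8 were called with equal sums. Against lung all 24 were higher, against liver 7, and against small intestine 10 were higher and 2 lower. Only 4 passed against each tissue. Idh2 stood at 175 and 221 in kidney and 16.9 to 61.7 elsewhere, and Pdha1, a subunit of pyruvate dehydrogenase, at 68.7 and 65.1 against 6.74 to 21.9. Suclg2, a subunit of succinyl-CoA synthetase, stood at 94.4 and 119 in kidney and 92.7 and 76.4 in liver. Of 83 nuclear-encoded subunits of oxidative phosphorylation, 41 were called higher and 1 lower (median 0.98), 63 were higher without kidney replicate 1 and 11 without kidney replicate 2, and with equal sums 6 were. The difference lay against lung, where 72 were higher and 5 lower, while 7 were higher against liver and 6 against small intestine. Atp5b, of the ATP synthase, stood at 721 and 931 in kidney, against 464 and 446 in small intestine, 76.5 and 73.3 in lung and 456 and 363 in liver. Cox4i2, an isoform of lung, was the member called lower, at 0.576 and 1.13 in kidney and 53.6 and 64.3 in lung. Mitochondrial ribosomal proteins were higher in 13 of 77 (16.9%, against 12.3% of all genes) and lower in none, with 27 higher without kidney replicate 1, 4 without kidney replicate 2, 4 with the values as deposited, and 2 higher and 1 lower with equal sums. Of the 13 protein genes of the mitochondrial genome, 11 were called higher (median 1.41), 7 without kidney replicate 2, 7 with the replicate number as a block, 6 with quantile normalization and 4 with equal sums. Against lung 13 were higher, against liver 1 and against small intestine 5, and none passed against each tissue. Transcripts of the mitochondrial genome made up 34.1% and 36.0% of the summed deposited values in the kidney libraries and 11.7% to 24.7% in the others.

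Fatty acid and ketone genes were higher against the mean and divided against liver. Of 37 genes tested, 22 were called higher (14 with equal sums) and 1 lower (median 1.21), but against liver 8 were higher and 11 lower. Oxct1, which ketone-using tissues need and hepatocytes lack, stood at 354 and 451 in kidney, against 26.4 and 22.3 in small intestine, 19.3 and 14.1 in lung and 3.0 and 5.31 in liver. Bdh2 stood at 35.8 and 57.5 in kidney and 0.0913 to 4.66 elsewhere. Peroxisomal genes were higher in 19 of 39 and lower in 6 against the mean, but against liver 6 were higher and 21 lower, with a median of -1.05. Hao2, an oxidase of hydroxy acids, stood at 116 and 162 against 0.0207 to 0.58, Dao, which oxidises D-amino acids, at 76.5 and 96.2 against 0.0864 to 7.26, and Nudt19, a hydrolase of coenzyme A, at 264 and 316 against 4.04 to 21.4. Xdh, which makes urate, stood at 3.8 and 2.14 in kidney and 21.6 to 112 elsewhere, and Uox, which degrades it, at 0.0997 and 0.773 in kidney and 598 and 529 in liver. Agxt, which detoxifies glyoxylate, stood at 0.0535 and 0.475 in kidney and 302 and 271 in liver.

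The breakdown of amino acids was higher in most genes against lung and small intestine and lower in many against liver. Of 60 genes tested, 39 were called higher and 11 lower against the mean (median 1.61). Against lung 48 were higher and none lower, against small intestine 43 and 6, and against liver 4 and 30. Acy3, which removes acetyl groups from amino acid conjugates, stood at 1102 and 1979 in kidney and 3.92 to 62.8 elsewhere. Ass1, which in kidney makes the precursor of arginine, stood at 846 and 1249 in kidney and 1907 and 1133 in liver. Otc, a step of the urea cycle, stood at 0.0321 and 0.475 in kidney, 45.9 and 54.4 in small intestine and 248 and 265 in liver. Tdo2, of tryptophan breakdown, stood at 0.199 and 0.914 in kidney and 861 and 737 in liver. Gatm, the renal step of creatine synthesis, stood at 278 and 377 in kidney and 1.16 to 6.66 elsewhere, while Bbox1, the last step of carnitine synthesis, stood at 0.175 and 0.22 in kidney and 48.6 and 45.6 in liver, and Gulo, of vitamin C synthesis, at 0.0401 and 0.249 and 219 and 191.

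Detoxification was carried by particular isoforms. Of 43 genes for glutathione and conjugation, 27 were called higher and 5 lower (3 lower without kidney replicate 1 and 8 with equal sums), with a median of 1.89. Ugt2b38 stood at 480.1 and 871 in kidney and 87 and 105 in liver, and Ugt3a2 at 404 and 479.6 and 180.4 and 155. Both encode transferases of sugar groups. Over the 16 glucuronosyltransferase symbols tested 5 were higher and 8 lower, with Ugt2b36 at 0.22 and 0.94 in kidney and 847 and 888 in liver. The glutathione transferases were 4 higher and 9 lower of 20: Gsta2 stood at 155 and 184 in kidney and 2.06 to 86.4 elsewhere, and Gstm3 at 0.346 and 0.922 in kidney, 273 and 461 in small intestine and 90.2 and 61.6 in liver. Of 69 cytochrome P450 symbols, 14 were higher and 35 lower (median -1.07), and against liver 8 were higher and 48 lower. The higher ones included Cyp2a4 at 143 and 200.1 against 0.0973 to 7.87, Cyp2j11 at 69.6 and 88.5 against 0.0222 to 0.162, and Cyp2j5 at 469 and 589.6 in kidney and 312 and 275 in liver. Cyp3a11, the main drug-metabolising enzyme of mouse liver, stood at 0.535 and 2.77 in kidney and 2291 and 2132 in liver, and Cyp2f2 at 1.55 and 3.06 in kidney and 832 and 647 in liver. Members of these families share sequence, and how the authors' counting split shared reads is not given in the sources used here. Of 24 genes of sterol and bile acid synthesis 7 were called higher (3 with equal sums) and 7 lower. Hmgcs1 and Mvd, of sterol synthesis, stood at 65.6 and 53 and at 22.8 and 33 in kidney, above all others, and Cyp8b1, of bile acid synthesis, at 0.0466 and 0.0827 in kidney and 169.6 and 243 in liver.

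**Figure D4:**
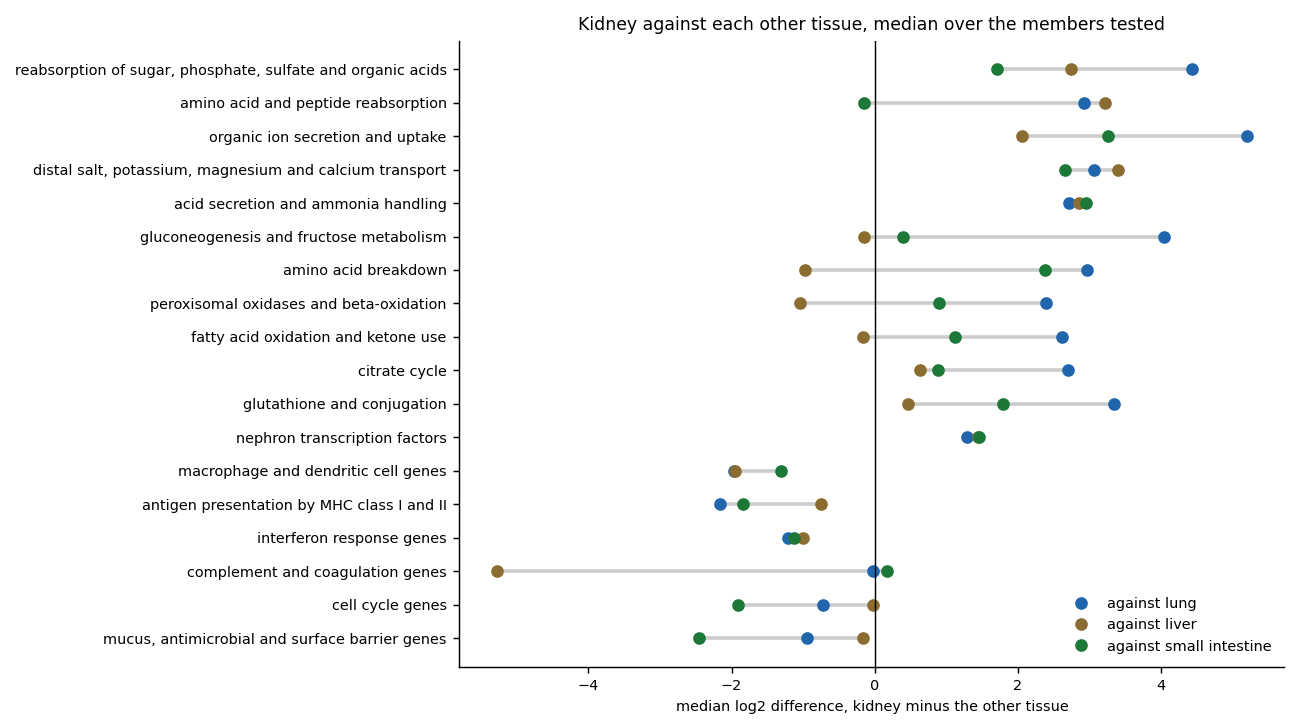
Median log2 difference over the tested members of 18 lists, kidney minus lung (blue), liver (brown) and small intestine (green). The carrier lists lie right of 0 against every tissue except amino acid recovery against small intestine, the lists of glucose synthesis, amino acid breakdown, peroxisomes and fatty acid oxidation lie left of 0 against liver, and the macrophage, antigen presentation and interferon lists lie left of 0 against all.

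The 12 genes with the largest negative differences were not those of 1 organ. Aldh1a1 (chr19:20492715-20643465), which makes retinoic acid, stood at 1.43 and 1.88 in kidney, against 109.7 and 115 in small intestine, 122 and 114 in lung and 468 and 349.8 in liver, a difference of -6.06 (SE 0.17, limma adjusted p = 4.89e-07). Hpgd (chr8:56294585-56321043), which inactivates prostaglandins, stood at 4.86 and 7.61 in kidney and 85.5 to 194 elsewhere, and Lgals9 (chr11:78962974-78984946), a sugar-binding immune regulator, at 3.91 and 6.41 against 37.8 to 396. These genes were abundant in every other tissue and scarce in kidney. Maob (chrX:16709282-16817366), a monoamine oxidase, stood at 1.25 and 1.45 against 11.5 to 134, Slc39a4 (chr15:76612383-76617384), a zinc importer, at 0.306 and 0.616 against 19.8 to 76, and Rnase4 (chr14:51091077-51106151), a secreted ribonuclease, at 2.75 and 4.53 against 30.1 to 822. Cyp2b10 stood at 0.258 and 0.649 against 2.86 to 218 and Cyp4v3, a fatty acid hydroxylase, at 0.739 and 0.868 against 4.32 and 4.35 in lung and more in the others. The other 4 were Lyz1, a lysozyme of Paneth cells, C3, the central complement protein, the protease inhibitor Serpina3n and the lipid-binding protein Sec14l2.

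Many genes of immune cells were called lower, and no member of the 4 immune cell lists was called higher against the mean. Of 26 macrophage and dendritic cell genes tested, 23 were called lower and none higher (median -1.67), 16 lay below all other libraries and 10 were called against each tissue. Lyz2, a lysozyme of myeloid cells, stood at 16.2 and 29 in kidney, against 93.6 and 74.9 in small intestine, 2910.0 and 2552 in lung and 103 and 82.8 in liver. Ctss, a protease of antigen processing, stood at 6.95 and 11 in kidney and 41.9 to 106 elsewhere, and Ear2, an eosinophil-type ribonuclease, at 0.316 and 0.336 against 0.823 to 70.3. Of 24 B and plasma cell genes 18 were called lower, and of 22 T and natural killer cell genes 13 (22 with limma-voom on the recovered reads), with none higher in either list. These differences were against lung and small intestine. Against liver 1 B cell gene was lower and 1 higher, and 1 T cell gene was lower. Igkc, the kappa light chain constant region, stood at 124 and 185 in kidney, against 9363 and 3980.5 in small intestine, 10509 and 5124 in lung and 76.7 and 76.5 in liver, so that kidney lay above liver. Of 178 immunoglobulin segments 135 were called lower, 89 without kidney replicate 1 and 87 without kidney replicate 2. Of 15 neutrophil and mast cell genes tested, 7 were called lower, and 12 with limma-voom, with 14 lower against lung, 3 against liver and 2 against small intestine.

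Antigen presentation genes were lower in most cases. Of 25 genes of the class I and class II pathways, 22 were called lower and none higher (median -1.55), 15 lay below all other libraries, and the medians were -2.16 against lung, -0.75 against liver and -1.84 against small intestine. B2m, the light chain of every class I molecule, stood at 161 and 281 in kidney, against 1690.3 and 1763 in small intestine, 1169 and 1106 in lung and 2919.8 and 2774 in liver, a difference of -3.05 (SE 0.27, limma adjusted p = 7.14e-05). H2-K1, a class I heavy chain, stood at 64.3 and 69.3 in kidney and 307 to 763 elsewhere. B2m and the class I heavy chains are made by nearly all nucleated cells. H2-Q10, a secreted class I molecule of liver, stood at 0.407 and 1.0 in kidney and 761 and 523 in liver, and Cd1d1, which presents lipids, at 0.671 and 1.0 against 1.74 to 153. The 3 catalytic subunits of the immunoproteasome were lower in kidney than in any other library: Psmb8 stood at 0.796 and 1.71 against 6.23 to 21.2, Psmb9 at 1.12 and 1.67 against 4.28 to 15.3 and Psmb10 at 3.51 and 6.76 against 18.6 to 90.7. The remaining 34 proteasome symbols tested held 1 call, Psmb5, the constitutive counterpart of Psmb8, at 86.9 and 156 in kidney and 32 to 111 elsewhere, which overlapped. With the values as deposited or with equal sums no proteasome symbol was called higher.

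Interferon response genes were often lower as well. Of 39 genes 23 were called lower and 1 higher (median -1.23), 18 lay below all other libraries, and 26, 20 and 22 were called lower against lung, liver and then small intestine. Irf1, a transcription factor that interferon induces and that acts on class I genes, stood at 2.49 and 2.72 in kidney, against 36.8 and 41.8 in small intestine, 17.9 and 23 in lung and 9.32 and 10.2 in liver. Ifi35 stood at 2.97 and 2.99 in kidney and 10.6 to 34.9 elsewhere. Bst2, which tethers virus particles, stood at 9.1 and 17.9 in kidney and 16.5 to 251 elsewhere, where kidney replicate 2 overlapped with small intestine. Rsad2, an antiviral enzyme, was the member called higher, at 7.5 and 5.93 against 1.27 to 4.0. With the values as deposited or with equal sums no member of the interferon list was called higher. Chemokine ligands were lower in 16 of 32 and higher in none. The part that immune cell numbers take in these differences was not tested.

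Complement and coagulation genes were lower against liver, their main source. Of 47 genes 31 were called lower and 5 higher (median -1.73). Against liver 36 were lower and 3 higher, with a median of -5.28, while the medians were -0.03 against lung and 0.18 against small intestine. C3 stood at 1.74 and 2.99 in kidney, against 5.94 and 5.11 in small intestine, 63.9 and 60.6 in lung and 1256 and 1069 in liver, and C4b at 0.422 and 0.538 in kidney and 1.56 to 175 elsewhere. Both were lower in kidney than in any other library. Vtn, vitronectin, stood at 0.447 and 1.67 in kidney and 1535 and 1559 in liver. Of those called higher, Plau, the urokinase that is excreted in urine, stood at 11.4 and 12.2 in kidney and at no more than 0.429 elsewhere. F13b stood at 53.7 and 64.1 in kidney and 144 and 140.5 in liver and Proc, protein C, at 68.6 and 97.3 and 427 and 371, so that both were shared with liver. Serpins were lower in 19 of 31 and higher in 3. Serpina1f stood at 29.5 and 46.8 in kidney and 0 to 0.133 elsewhere.

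Genes of supporting tissue were lower against lung in most cases, and differed in direction against the other tissues. Of 25 endothelial genes 1 was called higher and 7 lower (median -0.53, and 12 lower with equal sums), and against lung 21 were lower and none higher, against liver 4 and 2, and against small intestine 1 and 7. Emcn, a surface mucin of capillaries and veins, stood at 7.93 and 9.6 in kidney, against 2.06 and 1.38 in small intestine, 7.05 and 6.6 in lung and 0.476 and 0.687 in liver. Lyve1, of lymphatic endothelium and liver sinusoids, stood at 0.124 and 0.166 against 2.66 to 70.1. Of 37 genes of collagen and elastic fibres, 4 were called higher (2 with equal sums) and 14 lower, with none higher and 28 lower against lung, 10 and 3 against liver, and 6 and 7 against small intestine. Col4a3 and Col4a4, chains of the glomerular basement membrane, stood at 13.5 and 5.78 and at 17.7 and 10.6 in kidney and at 4.87 and 4.5 and at 6.93 and 7.54 in lung, the other organ known for these chains. Fn1, fibronectin, stood at 1.54 and 0.945 against 2.76 to 80.8, and Dpt, dermatopontin, at 1.76 and 1.92 against 4.37 to 87.9. Of 17 smooth muscle genes 10 were called lower and none higher, 14 were lower against lung and 14 against small intestine, and against liver 3 were higher and 1 lower, with Actg2, the actin of gut muscle, at 0.262 and 0.518 in kidney and 59.3 and 53.2 in small intestine.

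Cell cycle genes and barrier genes were often lower against the mean of the other tissues. Of 44 cell cycle genes 19 were called lower (30 with limma-voom) and 1 higher (median -0.87), and 36 were lower against small intestine, 11 against lung and 1 against liver. Ube2c, of mitotic exit, stood at 0.244 and 0.31 in kidney and 17.4 and 17.4 in small intestine. Ccnd1, cyclin D1, was the member called higher, at 19.8 and 19.1 against 2.04 to 11.1, and Cdkn1a, an inhibitor of the cycle, stood at 7.02 and 6.38 in kidney, against 71.9 and 124 in small intestine, 82.2 and 54.2 in lung and 8.91 and 7.87 in liver. Of 37 genes of mucus, antimicrobial peptides and surface barriers 26 were called lower and 4 higher (median -2.00), with 5 higher and 23 lower against small intestine, 3 and 18 against lung, and 10 and 5 against liver. Reg3g, an antibacterial lectin, stood at 0.236 and 0.915 in kidney and 391 and 480.1 in small intestine, and Krt19, a keratin of duct and gut epithelium, at 1.35 and 2.26 and 317 and 345. Cdh16, a cadherin of kidney epithelium that the list also holds, stood at 218 and 260.5 in kidney and 0.0446 to 1.92 elsewhere. Of 15 motile cilium genes tested 4 were called lower (8 with equal sums), and 14 against lung. Of 41 genes of the endoplasmic reticulum 3 were called lower, a smaller share than the 12.7% of all genes, while against liver 20 were lower and none higher (median -0.99). Against the mean 7 were lower without kidney replicate 2, and 12 with the values as deposited and 16 with equal sums.

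The kidney libraries differed more from each other than those of any other tissue. The median absolute log2 difference over genes was 0.285 between the kidney libraries, against 0.175 in small intestine, 0.115 in lung and 0.177 in liver, and 692 genes differed by more than 1 on the log2 scale, 292 higher in replicate 1 and 400 in replicate 2, against 391, 282 and 379 in the same order. The genes of core machinery were lower in replicate 1. The median of replicate 1 minus replicate 2 was -0.81 over 81 cytosolic ribosomal protein genes, -0.73 over the oxidative phosphorylation subunits, -0.62 over the mitochondrial ribosomal proteins and -0.59 over 37 proteasome subunits. The other tissues gave -0.07 to 0.35 for the ribosomal proteins and -0.05 to 0.27 for the oxidative phosphorylation subunits. Transport lists lay on both sides of 0, at -0.29 for the uptake of filtered proteins, -0.04 for organic ions, 0.08 for amino acid recovery, 0.22 for acid secretion and 0.24 for distal salt transport. Markers of the distal convoluted tubule and podocytes were higher in replicate 1, with medians of 0.73 and 0.64. For 5 red cell genes the median of replicate 1 minus replicate 2 was -1.79. Markers of other organs were also higher in kidney replicate 2, with medians of -1.36 for hepatocytes, -0.73 for alveolar type 2 cells and -0.48 for enterocytes.

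The difference between the kidney libraries moved with the length of the transcript. In quartiles of exon length it was -0.33 for the shortest (up to 1763 bases), -0.19, 0.01 and 0.20 for the longest (from 5841 bases), while the medians of the other tissues stayed between -0.08 and 0.12 in every quartile. In the comparison of kidney with the other tissues the medians were -0.12, -0.06, -0.08 and -0.13 in the same order. The part of RNA quality in the kidney difference was not tested. Cytosolic ribosomal protein genes, most of them short, had a median difference of -0.38 against the other tissues with 1 called higher and none lower. This became 0.01 without kidney replicate 1, and -0.81 with 19 called lower without kidney replicate 2. With equal sums the median was -0.90 with 30 called lower, and with the values as deposited 7 were called lower.

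**Figure D5:**
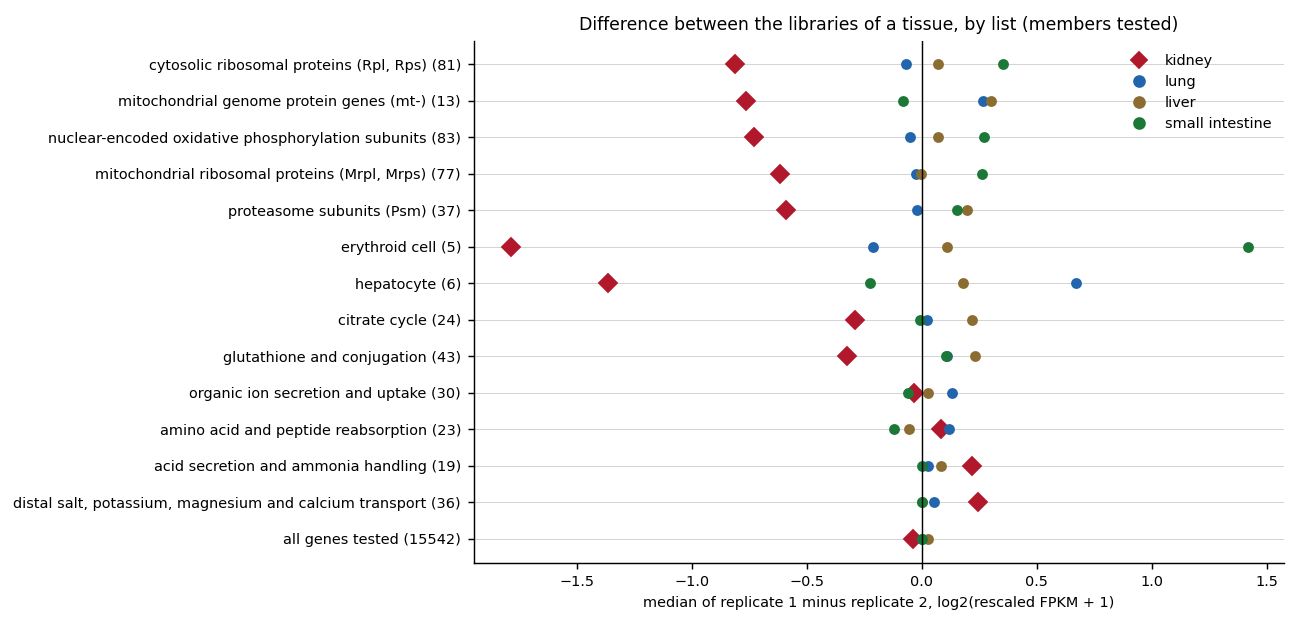
Median of replicate 1 minus replicate 2 on the log2(rescaled FPKM + 1) scale over the tested members of each list, for kidney (diamonds) and the other tissues (circles), with the number of members in parentheses. The kidney diamonds lie at -0.81 to -0.59 for ribosomal, mitochondrial and proteasome genes and at -0.04 to 0.24 for the transport lists shown.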

How the data were processed

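Bulk RNA of 4 mouse tissues was sequenced in 2 libraries each. The authors selected reads by sample index, mapped them with STAR 2.5.3a to an Ensembl mouse genome (GRCm38) and deposited FPKM values for 52195 genes, which the fpkm function of DESeq2 had normalized by library size. The counting program and its use of strand are not given in the sources used here, so reads of overlapping and near-identical genes may be assigned to the wrong one. Of the symbols, 51844 (99.3%) matched GENCODE M21, which gave coordinates and exon lengths. Values under 50 reads were whole reads within 0.02 reads for 94.5% to 96.1% of values per library, which gave 9164187 to 21444675 reads on genes and a floor that covers counting error only.

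Values were rescaled by the median of ratios over the 15137 genes above 0 in every library (factors 0.551 to 1.89) and transformed to log2(FPKM + 1). Genes that reached a rescaled FPKM of 1 in 2 or more libraries were fitted with limma 3.58.1 (R 4.3.3, eBayes with a trend, all 8 libraries, tissue as the factor) and p-values were adjusted by Benjamini-Hochberg over all genes tested, with thresholds of 0.05 on the adjusted p and 1 on the absolute log2 difference. Contrasts of kidney with each tissue came from the same fit and share the kidney libraries. The limma step was tested on simulated data. The exact two-sided permutation test of 2 against 6 libraries cannot go below 0.0357, and since the rule for named genes largely fixes its value, it is not given. Promoter windows came from RefSeq. Python 3.11.15, numpy 2.4.6, pandas 2.3.3 and matplotlib 3.10.9 served for descriptions and plots.

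The comparison, gene lists and tests were chosen with earlier results of these data known. Named genes were the 12 largest differences in each direction among called genes whose kidney libraries lay beyond all others and whose mean rescaled FPKM was at least 10 in kidney, or over the 6 other libraries for lower genes, leaving out kidney cell markers, mitochondrial genome genes and placeholder symbols. Of each list or family, up to 3 called members per direction were named by size. Gk, Vil1, Hoxa5, Hoxa10, Hoxb8, Hoxc4, Hoxc8, the 8 Hox genes listed by name alone and the 5 genes whose promoters held the hepatocyte nuclear factor 4 letters were named after their values were seen. Lists are described by counts and medians without a test. Alternatives changed the scaling, pseudocount, filter, trend, test, replicate block and libraries included. Some genes that the rule names are not reported here. The single-cell data of the study were not used here.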

Additional observations from a re-analysis of the deposited data

How the results depend on the processing

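Against the 1910 genes called higher and 1974 called lower, the strictest reading, a call against each of the 3 tissues, gave 794 and 195, of which 80.3% were higher. Equal sums gave 1163 higher and 3251 lower (26.3% higher), equal sums without the mitochondrial genome genes 37.9% higher, the values as deposited 35.3% higher, and equal sums without their chromosome 1 pseudogenes as well, a setting chosen after seeing the data, 2533 and 1828. Of the 1974 genes called lower, 1942 were also called with equal sums, and of the 1910 called higher, 1163. limma-voom on the recovered reads called 2660 higher and 3176 lower, and a pseudocount of 0.1 gave 2527 and 3283, both of which give low genes larger differences. Leaving out 1 library gave 1731 to 2216 higher and 1914 to 2047 lower, with both extremes for higher genes from leaving out a kidney library. A filter at 5 FPKM, on the deposited values or absent, quantile normalization and the fit without a trend stayed within 1.5 times of both counts. The replicate block gave 1904 higher and 1976 lower. The deviations of libraries with the same number correlated at -0.22 to 0.03 between tissues, so the numbers were not taken as pairs, and the block lowered the calls over the 13 mitochondrial genome genes from 11 to 7. Synpo turned negative with equal sums (-0.47), equal sums without mitochondrial genome genes (-0.27) and the values as deposited (-0.33), and lay between -0.25 (without kidney replicate 1) and 0.28 (without kidney replicate 2) when 1 library was left out, with -0.03 without small intestine replicate 1. None of the other 312 genes taken by the naming rule changed sign under the settings in which it was tested (with the filter at 5 FPKM 296 were tested), but of the 313 the call was lost for 173 when a call against each of the 3 tissues was required, 22 with equal sums, 14 with the values as deposited, 12 without kidney replicate 2 and at most 9 under any other.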

Other observations

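Genes outside the lists above were picked after their values were seen. Calls printed for them come from the same fit and serve as description only, because the choice was made on these values. The transcription factors Foxa1, Foxa2, Gata4 and Gata6, which shape organs of endodermal origin, were at or below 0.213 in kidney. Foxa2 stood at 0.0192 and 0.102 in kidney, against 2.05 and 1.28 in small intestine, 9.14 and 9.68 in lung and 12.1 and 10.8 in liver. Gata6 stood at 0.213 and 0.177 in kidney, against 21.4 and 25.6 in small intestine, 5.65 and 5.87 in lung and 3.54 and 3.34 in liver. Foxa1 stood at 0.164 and 0.0242 in kidney and 1.81 to 6.31 elsewhere, and Gata4 at 0.0233 and 0.0206 in kidney, against 23.2 and 24.1 in small intestine, 0.145 and 0.131 in lung and 3.35 and 3.85 in liver. Gata4 was not called against lung. Both kidney libraries lay below all 6 others for Foxa1, Foxa2 and Gata6. The same was true of Gata4, but by a small margin against lung (log2 difference -0.15).

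Of 17 immediate early genes tested, which respond quickly to stimuli, 10 were called lower and 1 higher (median log2 difference -1.16), and 7 lay below all 6 other libraries. Over all genes tested 12.7% were called lower, and 5.03% were called lower with both kidney libraries below all 6 others. The 17 were picked after their values were seen, so the counts describe these members and not the class. Against lung 16 of the 17 were lower and none higher, against liver 5 and 1, and against small intestine 11 and 4. Fos stood at 0.135 and 1.2 in kidney and 8.89 to 63.6 elsewhere, and Ier2 at 2.39 and 3.12 against 8.44 to 19.9. Nfkbia, the inhibitor that NF-kappaB induces, stood at 14.4 and 16 in kidney and 40.1 to 95.6 elsewhere, and Socs3, which cytokines induce, at 0.267 and 0.307 against 1.82 to 7.86. The kidney libraries were the lowest for each of these. Dusp1 stood at 24 and 13.8 in kidney, against 3.74 and 3.79 in small intestine, 38.4 and 60.9 in lung and 21.5 and 11.2 in liver, and Ier3, the member called higher, at 13 and 15.5 in kidney, 5.06 and 4.41 in small intestine, 28.5 and 38.3 in lung and 0.876 and 0.958 in liver.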
